A study of Mus musculus with 29 samples.

Results

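Apol6 and Acod1 are 2 of the 28229 genes with a row in a table of mRNA counts from the NRAS-mutant melanoma line NMM of the mouse. Both were selected on their measured fold change between 24 h of interferon gamma (IFNγ) and medium, which was among the highest, so their levels in that comparison are given as a description. Both passed the filter on low counts, which kept 14935 genes. All 29 libraries came from this single line. Cells received a first stimulation of 2, 6, 12 or 24 h, were washed 5 times with PBS and then received a second stimulation of 24 h. IFNγ was given at 100 ng/ml and transforming growth factor beta (TGFβ) at 10 ng/ml. There were 7 sequences of stimuli, each with 1 library for every first duration and thus 4 in all. Medium came first in 3 of them and was followed by medium, IFNγ or TGFβ. TGFβ came first in 2 (followed by medium or IFNγ), and so did IFNγ (followed by medium or TGFβ). A single library received medium for 24 h and then a mix of both cytokines. Sequences are named by first and second stimulus. The labels name no repeat cultures, so the durations serve as replicates here, and p-values reflect the variation among these libraries, part of which may be technical. The labels do not say whether libraries of the same duration were prepared together, so duration and handling cannot be told apart.

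IFNγ binds a receptor that activates the kinases JAK1 and JAK2, and genes are induced in part through factors such as IRF1. Acod1 (aconitate decarboxylase 1, also known as Irg1) encodes a mitochondrial enzyme that turns cis-aconitate from the citric acid cycle into itaconate. It is best known from activated macrophages, where itaconate inhibits succinate dehydrogenase and acts on genes under the transcription factors NRF2 and ATF3. Apol6 belongs to the apolipoprotein L family, lipid-binding proteins that in human cells include IFNγ-induced members with roles in defence against pathogens and in cell death.

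Libraries held between 17179530 and 23668015 counts. Values are CPM, counts relative to library sizes scaled with TMM factors (trimmed mean of M values). Means are given ± SD with n = 4, and changes are log2 fold changes with their standard error (SE). A gene was called at a Benjamini-Hochberg adjusted p below 0.05 over all 14935 genes in edgeR's quasi-likelihood test. Among the medium libraries the one of 6 h stood apart: its log2 CPM differed from the mean of the other 3 with an SD of 0.596 across genes, against 0.320 to 0.361 for the others. Of 11 markers of melanocytes and melanoma, the pigment genes Dct, Tyr, Tyrp1 and Mlana had no row, Sox10 reached at most 0.135 CPM and Pmel 0.444 CPM, and Ngfr 0.982 CPM. The other 4 were present: Mitf lay between 8.40 and 20.2 CPM, Gpnmb between 26.4 and 276 CPM, Axl between 1050 and 1402 CPM, and S100b reached 1.33 CPM. The pigment genes and Sox10 were thus absent or near 0 in this melanoma line, while Mitf was measured in every library. Of 20 markers of leukocytes and macrophages, the cells in which Acod1 is best known, 7 had no row and 9 never reached 1 CPM, among them Ptprc (at most 0.172 CPM), Csf1r (0.173 CPM), Spi1 (0.0945 CPM) and Lyz2 (0.0558 CPM). The other 4, Cd14, Cd68, Laptm5 and Mrc1, were measured at up to 76.4, 6.18, 12.9 and 6.44 CPM. Of these, Mrc1 rose with IFNγ, by 1.08 after TGFβ (edgeR adjusted p = 0.0125) and by 2.02 after medium (adjusted p = 1.05e-05), and Laptm5 fell by 1.06 and 0.74 on the log2 scale (adjusted p = 0.000677 and 0.0309). The summed level of these markers ran from 42.3 to 72.8 CPM in medium then IFNγ and from 58.0 to 86.5 CPM in medium alone. It ran from 30.7 to 77.4 CPM in TGFβ then IFNγ and from 35.1 to 64.6 CPM in TGFβ then medium. Markers of fibroblasts and endothelium summed to 160.5 to 239 CPM in the sequences that ended with IFNγ and to 147 CPM in the mix. In the other sequences they summed to 377 to 1950 CPM. Most of the sum came from Col3a1 and Dcn. The endothelial genes Kdr, Pecam1 and Vwf reached at most 0.0507, 0.279 and 0.289 CPM. Another endothelial gene, Cdh5, was measured in every library, at 5.45 to 24.5 CPM. It fell with IFNγ by 0.56 on the log2 scale after TGFβ (edgeR adjusted p = 0.0127) and after medium (adjusted p = 0.0183). Pdgfra and Pdgfrb were also measured in every library. The part of these markers in the results was not tested. In bulk libraries, fewer cells of a type and less RNA per cell cannot be told apart.

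Acod1 (ENSMUSG00000022126) lies on chromosome 14 at positions 103046977 to 103056573 of GRCm38, on the plus strand. It has 1 transcript with 5 exons and 2623 bp of exon sequence in GENCODE release M21, and no other gene of that release overlaps it. Its promoter is shown because Acod1 rose with IFNγ and its level varied with the hours of the first stimulation in TGFβ then IFNγ. The window is the 250 bases before the RefSeq start site on GRCm38.p6, chr14:103046762-103047011 on the plus strand. The Ensembl model of the gene starts inside it. Capitals mark every motif match found on either strand.
Acod1 promoter: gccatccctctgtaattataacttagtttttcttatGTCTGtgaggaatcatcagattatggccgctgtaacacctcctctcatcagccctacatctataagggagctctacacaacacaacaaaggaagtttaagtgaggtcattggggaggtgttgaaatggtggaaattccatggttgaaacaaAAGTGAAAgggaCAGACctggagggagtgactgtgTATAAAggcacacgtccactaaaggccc
An IRF half-site (AANNGAAA) lay at -63 to -56 from the start site, a motif that 21.3% of 32851 promoter windows of the same length hold. The SMAD element CAGAC was found at -51 to -47 and, on the minus strand, at -214 to -210, and 42.2% of windows hold it. A TATA box (TATAAA, 12.4% of windows) lay at -28 to -23. The GAS motif (TTCNNNGAA, 7.02% of windows) and the ISRE core (GAAA, any 2 bases, GAAA, 2.98%) had no match in this window. Nor had the AP-1 motif TGANTCA (6.75%) and the NF-kB motif GGGRNWYYCC (3.9%). Here N is any base, R is A or G, W is A or T and Y is C or T. Only these exact patterns were searched, and looser forms of the motifs were not. The IRF half-site and the nearer CAGAC do not overlap. These are letters in the sequence and say nothing of binding.

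Apol6 (ENSMUSG00000033576) lies on chromosome 15 at positions 77044729 to 77057106 of GRCm38, on the plus strand. It has 7 transcripts and 4498 bp of exon sequence in GENCODE M21. The myoglobin gene Mb overlaps its first part on the opposite strand. Whether the counting separated strands is not given in the sources used here, but Mb held 21 counts in all 29 libraries together and at most 0.189 CPM.

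Apol6 was near the limit of detection wherever IFNγ was not the second stimulus. In medium alone it measured 0.183, 0.116, 0.0987 and 0.111 CPM at 2, 6, 12 and 24 h, from 2 to 4 counts per library. In medium then IFNγ it measured 40.4, 45.0, 45.2 and 31.1 CPM at the same durations of the first stimulation. The groups lie far apart, and the 24 h library was the lowest of the IFNγ libraries. The means were 0.127 ± 0.0379 and 40.4 ± 6.62 CPM. This was the comparison that chose the gene: the fitted change was 8.21 (SE 0.298), the 3rd highest of 14935, where 43.8% of all genes were called. The size depends on how the few counts in medium are handled, and was 7.44 with a prior count of 2.

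Acod1 had a measurable level in medium, with 3.43, 1.96, 3.06 and 3.71 CPM at 2, 6, 12 and 24 h. In medium then IFNγ it measured 152, 191, 71.3 and 93.6 CPM. All IFNγ libraries lay above all medium libraries, and those after 2 and 6 h in medium were higher than those after 12 and 24 h. The means were 3.04 ± 0.765 and 127 ± 54.7 CPM, and the fitted change in this choosing comparison was 5.32 (SE 0.509), the 21st highest. The spread of Acod1 over the 4 IFNγ libraries, a coefficient of variation of 43.0%, was wider than the 16.4% of Apol6. Per kb of exon sequence, Acod1 was the higher of the pair, at 48.5 against 8.99 CPM per kb in medium then IFNγ.

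**Figure D1:**
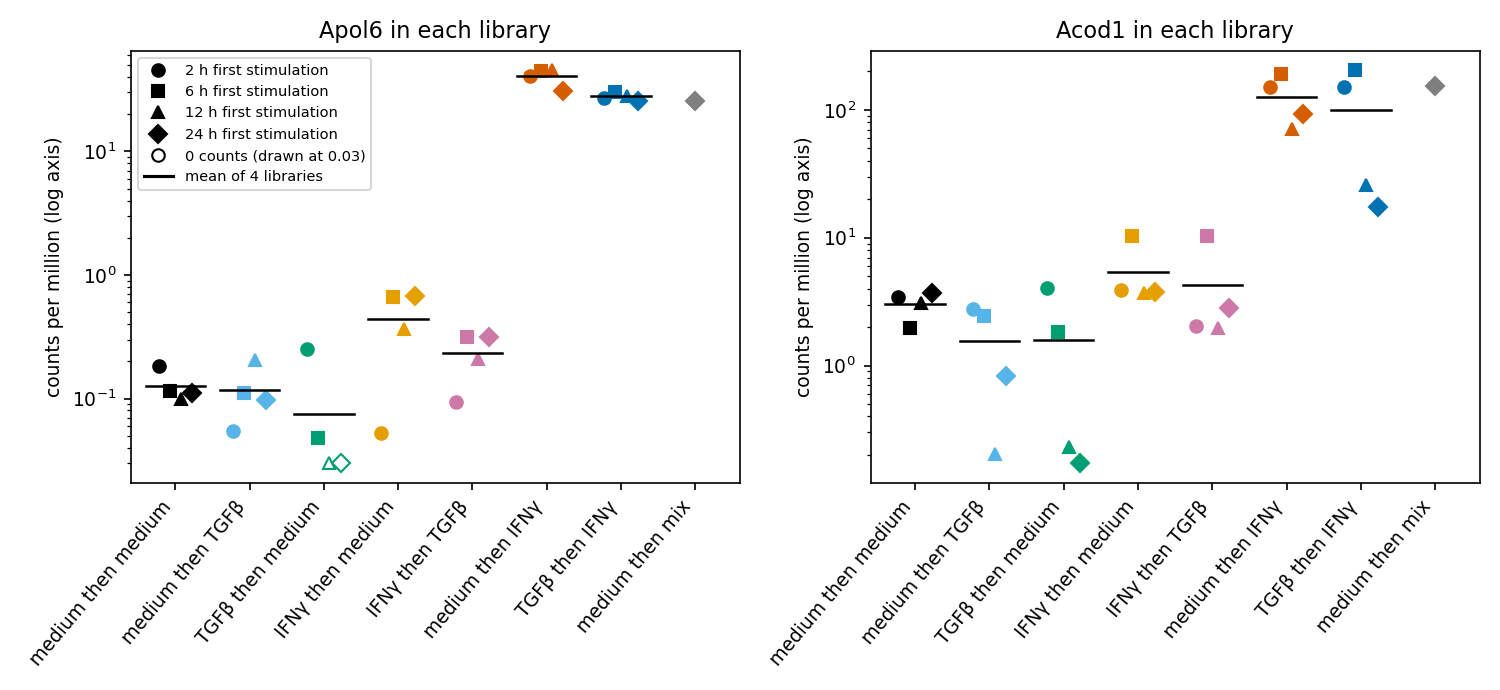
Level of Apol6 (left) and Acod1 (right) in each library, in CPM on a log axis, by sequence of stimuli; the symbol gives the duration of the first stimulation, the black line the mean of 4 libraries, and open symbols at 0.03 mark 0 counts. For both genes the libraries with IFNγ as the second stimulus, and the mix, lie above all others, and Acod1 is low at 12 and 24 h in medium then TGFβ, TGFβ then medium and TGFβ then IFNγ.

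The response to IFNγ was tested in cells that had first received TGFβ, libraries that the choice of the genes had not used. Apol6 measured 26.8, 30.4, 28.2 and 25.8 CPM in TGFβ then IFNγ at 2, 6, 12 and 24 h of TGFβ. In TGFβ then medium it measured 0.251 and 0.0479 CPM at 2 and 6 h, from 5 counts and 1 count, and had 0 counts at 12 and 24 h. The groups do not overlap, and the 4 induced libraries lie within a narrow range with a coefficient of variation of 7.23%. Apol6 rose by 8.35 (SE 0.328, edgeR adjusted p = 1.33e-14), the 2nd highest change of 14935 genes, of which 36.4% were called in this comparison. It was higher at 4 of 4 durations. Apol6 passed the filter on low counts only through libraries that had received IFNγ. Its adjusted p and its rank are thus not independent of its IFNγ response. The ratio was 107-fold at 2 h (95% counting interval 45.5 to 331). Taking 3 counts per library as the limit, Apol6 was at least 164-fold higher at 12 h and at least 150-fold higher at 24 h. The fitted size leans on the few counts without IFNγ: it was 10.2 without the 2 h library of TGFβ then medium and 7.27 with a prior count of 2.

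Acod1 also rose in TGFβ-pretreated cells, but from a base and to a level that both varied with the duration of the first stimulation. It measured 150, 204, 25.6 and 17.4 CPM in TGFβ then IFNγ at 2, 6, 12 and 24 h. In TGFβ then medium it measured 4.07, 1.82, 0.229 and 0.172 CPM. In both sequences the 12 and 24 h libraries lie far below the 2 and 6 h libraries, yet the lowest induced library was above the highest library without IFNγ. Acod1 rose by 5.71 (SE 0.558, edgeR adjusted p = 6.61e-08), the 24th highest change, and by 6.72 without the 2 h library of TGFβ then medium. With only the 2 and 6 h libraries the change was 5.87 (SE 0.523, adjusted p = 1.97e-05). At single durations the ratio was 36.9-fold (95% counting interval 29.6 to 46.6), 112-fold (81.4 to 158), 112-fold (43.4 to 412) and 101-fold (34.2 to 491). The intervals of the last 3 overlap and are wide at 12 and 24 h, where TGFβ then medium held 4 and 3 counts.

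Set beside medium pretreatment, the 2 genes differed in how the level after IFNγ followed the hours of the first stimulation. These ratios use the libraries that chose the genes and carry no test. Apol6 after TGFβ stood at 66.4%, 67.6%, 62.3% and 83.0% of its level after medium at 2, 6, 12 and 24 h, with every TGFβ library below every medium library. Acod1 stood at 98.5%, 107%, 36.0% and 18.5%. Apol6 was thus lower at each duration, least so at 24 h, while Acod1 was near its medium level after 2 and 6 h of TGFβ and well below it after 12 and 24 h.

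**Figure D2:**
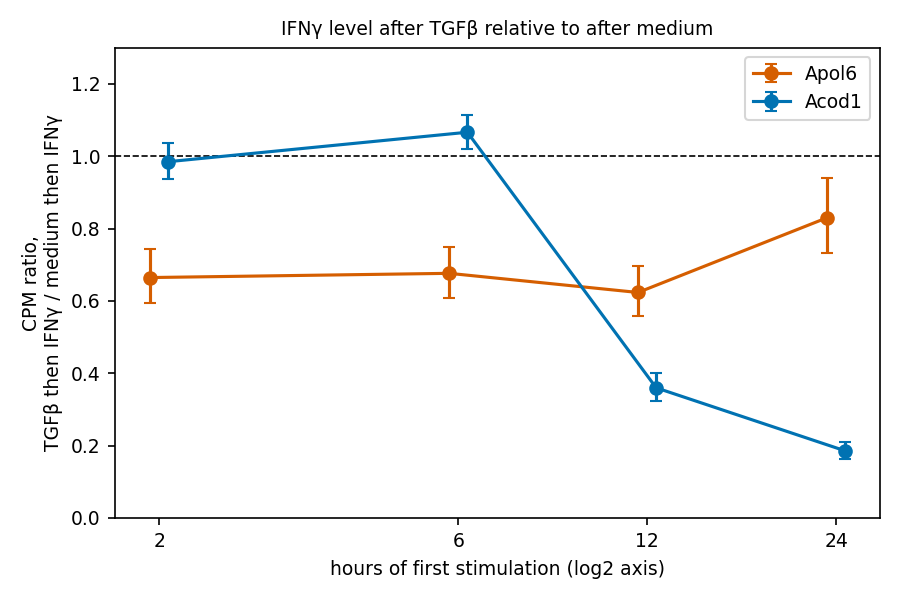
CPM ratio of TGFβ then IFNγ to medium then IFNγ against the hours of the first stimulation (log2 axis), for Apol6 and Acod1; bars are 95% intervals for counting error only and the dashed line marks equal levels. Acod1 moves from 0.985 and 1.07 at 2 and 6 h to 0.360 and 0.185 at 12 and 24 h, while Apol6 lies between 0.623 and 0.830.

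The hours of the first stimulation, in TGFβ then IFNγ the hours of TGFβ, were tested as a slope per doubling. Duration and handling cannot be told apart in this test. Acod1 was also lowest at 12 and 24 h in medium then TGFβ, where every library received 24 h of TGFβ. In TGFβ then IFNγ the slope of Acod1 was -1.05 (SE 0.319), which did not pass correction (edgeR adjusted p = 0.146), in a test that called 0.208% of genes. That of Apol6 was -0.016 (SE 0.0798, adjusted p = 0.953). In place of the slope, 12 and 24 h were also set against 2 and 6 h, a step chosen with earlier results of these data known. P-values and calls of this step, here and below, are therefore a description. Acod1 was lower by a log2 difference of -3.04 (SE 0.401, edgeR adjusted p = 9.73e-05), and 10% of genes were called. Apol6 differed by -0.086 in that step (SE 0.221, adjusted p = 0.864). Keeping genes of low counts in the fit also brought the Acod1 slope past the threshold (adjusted p = 0.0113), and leaving out the 24 h library brought it to -0.73 (adjusted p = 0.950).

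Medium pretreatment gave the reference for these trends; its IFNγ libraries took part in choosing the genes, by their mean over durations and not by a trend. In medium then IFNγ the slope was -0.28 for Acod1 (SE 0.261, adjusted p = 0.972) and -0.076 for Apol6 (SE 0.0804, adjusted p = 0.972), and 0% of genes were called by edgeR, with 593 at an unadjusted p below 0.05. The step from 2 and 6 h to 12 and 24 h was -1.06 for Acod1 (SE 0.365, adjusted p = 0.228; 0.0603% of genes called), and this step did not pass the threshold. The difference between the TGFβ and the medium slope was -0.76 for Acod1 (SE 0.415, adjusted p = 0.966; 0% called, 743 at an unadjusted p below 0.05). The difference between the steps was -1.98 (SE 0.529, adjusted p = 0.191; 0.067% called). Neither difference passed the threshold, which does not show that the trends were alike.

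**Figure D3:**
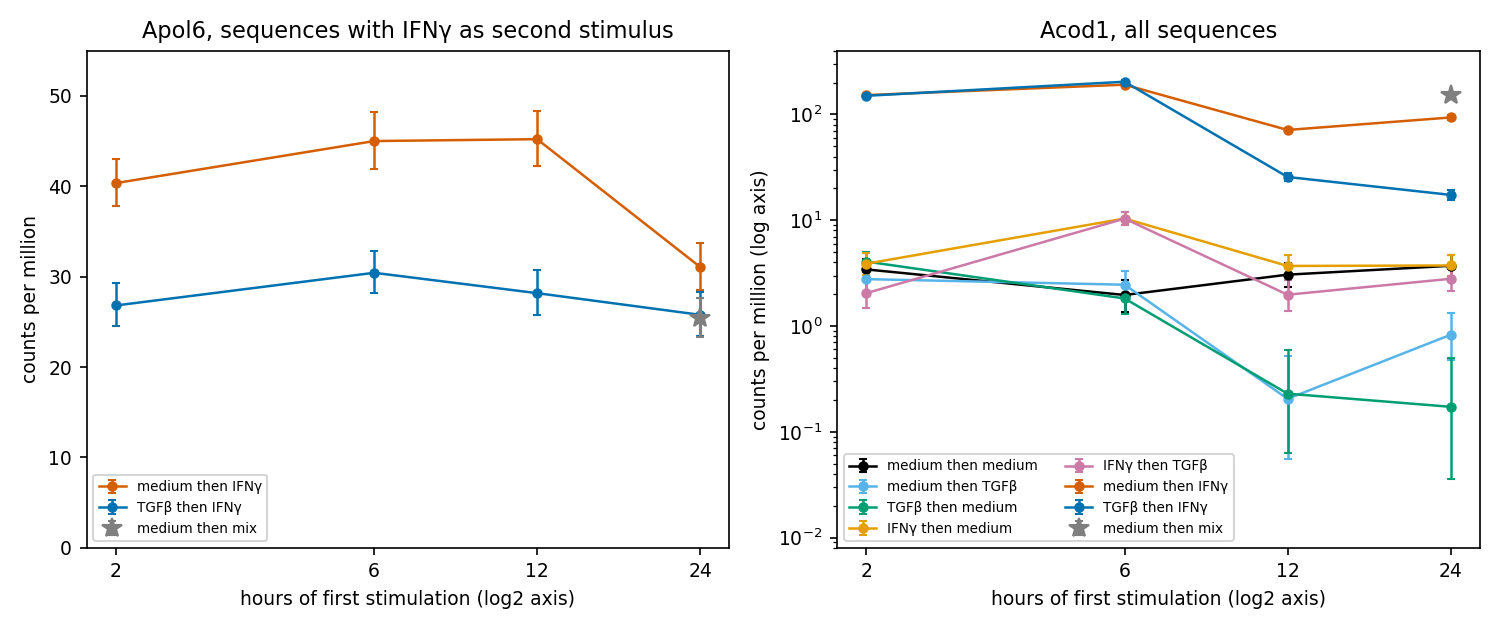
Left, Apol6 in CPM against the hours of the first stimulation (log2 axis) in the sequences that ended with IFNγ and in the mix; right, Acod1 in all sequences on a log axis; bars are 95% Poisson intervals for counting error only. In the TGFβ sequences without an IFNγ pulse the Acod1 values at 12 and 24 h lie below those at 2 and 6 h, and after an IFNγ pulse the 6 h libraries are the highest, at 10.4 CPM.

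Without IFNγ, Acod1 was low in the same libraries. In TGFβ then medium its level was 1.19 and 0.927 times that of medium alone at 2 and 6 h and 0.0750 and 0.0464 times at 12 and 24 h. In medium then TGFβ, where the TGFβ exposure was 24 h in every library, it measured 2.77, 2.46, 0.205 and 0.825 CPM at 2, 6, 12 and 24 h of medium. The 12 and 24 h libraries of that sequence were again the lowest, at 0.0670 and 0.222 times medium alone, although all 4 received the same TGFβ. Medium alone showed no such gap. Apol6 held 0 to 5 counts in these libraries, and no difference between them was detectable at this depth.

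The mix of both cytokines, 1 library after 24 h in medium, held 538 counts of Apol6, 25.4 CPM (95% counting interval 23.3 to 27.7), and 3249 of Acod1, 154 CPM (148 to 159). Apol6 in the mix lay just under the lowest library of TGFβ then IFNγ and below all libraries of medium then IFNγ. Acod1 in the mix lay within the range of medium then IFNγ and far above the 17.4 CPM of the library that had received TGFβ for 24 h before IFNγ. With 1 library there is no replicate check.

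In the order of mean levels, Apol6 went from medium then IFNγ to TGFβ then IFNγ and the mix, whose values do not overlap. IFNγ then medium (0.438 ± 0.294 CPM), IFNγ then TGFβ (0.233 ± 0.107), medium alone, medium then TGFβ (0.117 ± 0.0634) and TGFβ then medium (0.0747 ± 0.120) followed, and each of these overlaps its neighbour. For Acod1 the mix, medium then IFNγ and TGFβ then IFNγ (99.2 ± 92.4 CPM) overlap each other and stand above the rest. IFNγ then medium (5.42 ± 3.31 CPM), IFNγ then TGFβ (4.29 ± 4.06), medium alone, TGFβ then medium (1.57 ± 1.83) and medium then TGFβ (1.57 ± 1.25) overlap from neighbour to neighbour.

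The ratio of the pair within a library removes differences in depth. Acod1 per kb was 6.47, 7.28, 2.70 and 5.17 times Apol6 per kb in medium then IFNγ at 2, 6, 12 and 24 h. In TGFβ then IFNγ it was 9.60, 11.5, 1.56 and 1.15 times, and in the mix 10.4 times. The pair was thus closest in level after 12 and 24 h of TGFβ.

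An IFNγ pulse that had been washed away left little of either transcript 24 h later. With TGFβ as the second stimulus, Apol6 measured 0.0929, 0.317, 0.208 and 0.316 CPM after 2, 6, 12 and 24 h of IFNγ, against 0.0544, 0.112, 0.205 and 0.0971 CPM after medium. The groups overlap, and every library held at most 7 counts. The log2 difference was 0.95 (SE 0.688, edgeR adjusted p = 0.637) in a test that called 0.0937% of genes. Acod1 measured 2.04, 10.4, 1.98 and 2.79 CPM after the pulse and 2.77, 2.46, 0.205 and 0.825 CPM after medium. It was higher at 3 of 4 durations, with overlapping groups, and the difference of 1.44 (SE 0.686, unadjusted p = 0.0466, edgeR adjusted p = 0.422) did not pass correction.

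With medium as the second stimulus, Apol6 measured 0.0524, 0.666, 0.364 and 0.670 CPM after 2, 6, 12 and 24 h of IFNγ, from 1, 12, 7 and 14 counts. The 2 h library lay below all 4 libraries of medium alone and the other 3 above them. Acod1 measured 3.88, 10.4, 3.70 and 3.73 CPM, which was 1.13, 5.28, 1.21 and 1.01 times medium alone at the same duration. The 6 h library was far above the medium libraries, and the other 3 lay at or just above the highest of them. The comparison with medium alone uses libraries that chose the genes and carries no test.

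Within the pulsed sequences, the log2 difference between TGFβ and medium as the second stimulus was -0.90 for Apol6 (SE 0.511, edgeR adjusted p = 0.358) and -0.42 for Acod1 (SE 0.559, adjusted p = 0.762), where 7.26% of genes were called. Apol6 was higher under TGFβ at 1 of 4 durations and Acod1 at 0 of 4. The slope per doubling of the IFNγ hours was 0.54 for Apol6 in IFNγ then medium (SE 0.209, unadjusted p = 0.0186, edgeR adjusted p = 0.824; 0% of genes called, 854 at an unadjusted p below 0.05) and 0.34 in IFNγ then TGFβ (adjusted p = 0.999; 0.0067% called). For Acod1 these slopes were -0.12 and -0.099, neither past the threshold.

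Which cytokine came last separated both genes. Apol6 was higher in TGFβ then IFNγ than in IFNγ then TGFβ by 6.86 (SE 0.275, edgeR adjusted p = 3.26e-14) and Acod1 by 4.30 (SE 0.487, adjusted p = 7.95e-07), each at 4 of 4 durations and with no overlap between the groups. In this comparison 32.5% of genes were called, and it shares its IFNγ-ended libraries with the comparison against TGFβ then medium. Apol6 passed the filter on low counts only through libraries that had received IFNγ, so its being tested was not independent of its IFNγ response. Each library of IFNγ then TGFβ held at most 7 counts of it, and the size of its difference leans on these.

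The response to IFNγ after TGFβ was then read across genes of the same families and pathways, against a background of 18.8% of genes called higher and 17.6% called lower and a median change of -0.0077. The apolipoprotein L family had 10 of 14 listed genes in the table and 6 that were tested. Apol6 and Apol10b passed the filter on low counts only through libraries that had received IFNγ, so their rise was bound up with being tested. Of the other 4, 3 rose. The median over the 6 was 1.69, as a description. Apol10b was listed at 0 counts in all 4 libraries of TGFβ then medium and at 1.27 ± 0.343 CPM after IFNγ, at least 7.37-fold higher against 3 counts per library. Apol9a rose from 71.6 ± 63.5 to 196 ± 76.7 CPM (log2 change 1.64, SE 0.390), Apol7a by 1.61 and Apol9b by 1.73, the last with adjusted p = 0.0885 without the duration factor. Apold1 had a log2 difference of -0.46 (adjusted p = 0.0957). With IFNγ after medium, where 43.8% of genes were called, Apol7a was called higher (1.31) and Apold1 lower (-0.95, edgeR adjusted p = 0.000807). Apol9a (0.60, adjusted p = 0.206) and Apol9b (0.57, adjusted p = 0.393) were not called there. Genes of this family are similar in sequence, and reads shared between them may have been split or dropped.

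In the IFNγ response after TGFβ, genes around the itaconate step did not follow Acod1 upward. Of 25 tested genes for citrate cycle enzymes, their carriers and itaconate breakdown, 0 rose and 10 fell, with a median of -0.11. Of the 10, Aco1, Suclg2, Slc25a11 and Fh1 lost their call in 11, 10, 6 and 1 of 16 alternatives. Idh1, a cytosolic isocitrate dehydrogenase, fell from 85.9 ± 2.26 to 47.6 ± 7.78 CPM (log2 change -0.86, SE 0.121). Clybl, an enzyme of itaconate breakdown, fell from 4.71 ± 0.534 to 2.94 ± 1.14 CPM (-0.71, SE 0.199). Mmut, the methylmalonyl-CoA mutase, fell by 0.61 and Sdhc, a subunit of succinate dehydrogenase, by 0.53 on the log2 scale. With IFNγ after medium, Slc25a10 (0.71), Cs (0.22) and Idh3a (0.16) were called higher. Others of the list, such as Idh1 (-1.07) and Sdhc (-0.57), were called lower there.

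Of 14 listed genes tied to itaconate through NRF2 and ATF3, Nfe2l2 and Keap1 among them, 8 rose and 1 fell. The median was 0.33. The list was not sorted by the direction in which itaconate moves each gene, and a part of itaconate was not tested. Atf3, a stress transcription factor, rose from 10.0 ± 3.61 to 53.1 ± 31.8 CPM (log2 change 2.33, SE 0.267). Nfkbiz, an NF-kB cofactor, rose by 0.90 and Srxn1, a sulfiredoxin, by 0.88. Osgin1 fell from 2.13 ± 0.466 to 1.01 ± 0.160 CPM. Nfe2l2, the gene of NRF2 itself, had a log2 difference of 0.021 (adjusted p = 0.811).

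Of 14 macrophage genes known to be switched on together with Acod1, 7 were tested, 5 rose and 1 fell, with a median of 0.41. Nos2 was tested only through libraries that had received IFNγ, and of the other 6 genes 4 rose. Ptgs2 (prostaglandin synthase) rose from 462 ± 113 to 1624 ± 942 CPM and the cytokine gene Il6 from 0.556 ± 0.648 to 4.81 ± 4.05 CPM. Nos2, the inducible nitric oxide synthase, stayed low, at 0.306 ± 0.0985 CPM after IFNγ, and its rise (log2 change 4.27) had adjusted p = 0.0818 without the duration factor. Sod2, the mitochondrial superoxide dismutase, rose by 0.41, and the hypoxia factor Hif1a fell by 0.22 on the log2 scale. Of the macrophage markers, Ptprc, Csf1r and Spi1 were near 0 in all libraries, Cd14, Cd68 and Laptm5 were measured in every library, and Mrc1 rose in this comparison by 1.08. Their part in these values was not tested.

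Signalling and other strongly induced genes gave the scale of the response. Of 19 tested IFNγ signalling genes, 16 rose and 0 fell, with a median of 1.39; without Ciita, tested only through IFNγ libraries, 15 of 18 rose. Irf1 rose from 20.8 ± 13.7 to 474 ± 29.0 CPM (log2 change 4.61), Batf2, a transcription factor, by 7.30 and the feedback inhibitor Socs3 by 2.55. The class II transactivator gene Ciita had 0 counts without IFNγ and 0.345 ± 0.226 CPM with it, at least 2.00-fold higher. Its call was lost with DESeq2 (adjusted p = 0.414). The receptor genes Ifngr1 and Ifngr2 had log2 differences of -0.14 each (adjusted p = 0.178 and 0.196). With IFNγ after medium both were called lower, by -0.27 and -0.50 (edgeR adjusted p = 0.00777 and 2.32e-05). Of 20 genes known as strongly IFNγ-induced, 18 were tested and 18 rose with IFNγ after TGFβ, with a median of 4.69. Without Cxcl11, Ido1 and Nos2, which were tested only through IFNγ libraries, 15 of 15 rose. The chemokine gene Cxcl9 rose by 7.72 and the GTPase genes Gbp4, Tgtp1 and Gbp2 by 7.53, 6.18 and 5.78. The Gbp and Tgtp genes have near-identical copies, so that single values are uncertain. Apol6 at 8.35 was above the highest of these 18 and Acod1 at 5.71 above their median, without a test of these differences.

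**Figure D4:**
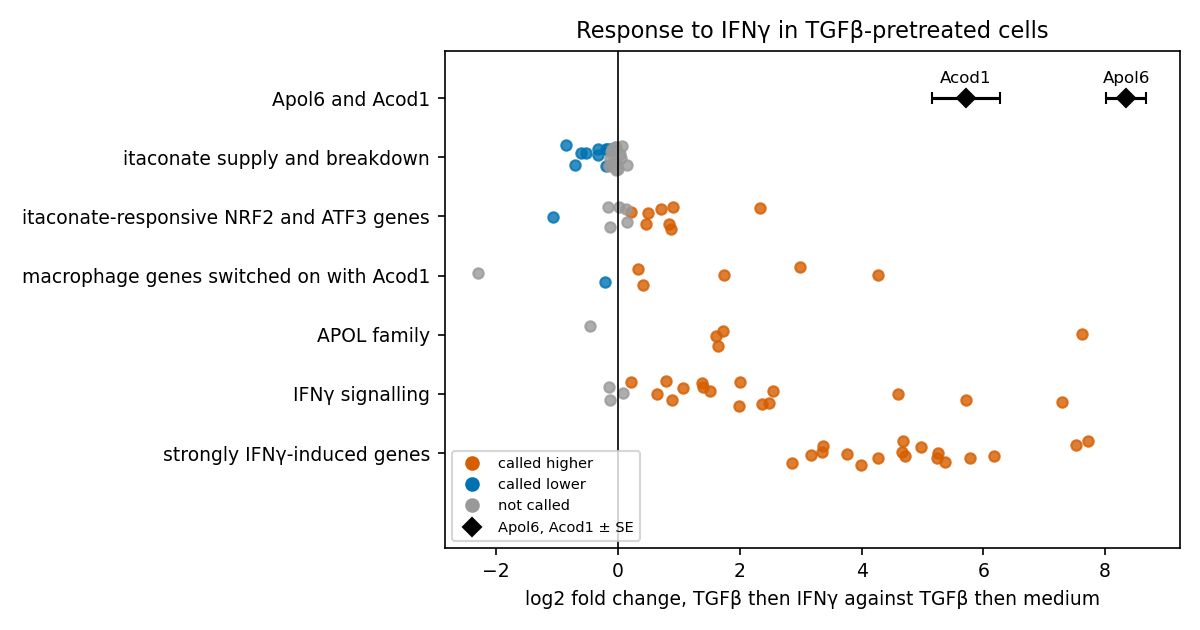
Log2 fold change of TGFβ then IFNγ against TGFβ then medium for the tested genes of 6 lists, coloured by call, with Apol6 and Acod1 above them (black, ± SE). The genes of itaconate supply and breakdown lie near or below 0, while all 18 strongly IFNγ-induced genes lie above 0.

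The step between 2 and 6 h and 12 and 24 h of TGFβ before IFNγ, in which Acod1 was lower, was read for the same lists. In it 4.29% of all genes were called higher and 5.71% lower. As the step was chosen with earlier results known, its calls are a description. Among the macrophage genes 2 of 7 were lower, Ptgs2 (log2 difference -1.54, SE 0.143) and Il6 (-2.49, SE 0.512). Among the NRF2 and ATF3 genes 4 of 14 were lower, Atf3 (-1.57), Slc7a11 (-1.14), Nfkbiz (-0.84) and Srxn1 (-0.54), and 0 were higher. Among the strongly induced genes 3 of 18 were lower, Ido1 (-2.10), Cxcl11 (-1.57) and Cd274 (-1.02). Ido1 and Cxcl11 were tested only through IFNγ libraries. Of the 15 genes of this list that were not, Cd274 alone was lower. The citrate cycle and itaconate breakdown genes went the other way, with 6 of 25 higher, among them Clybl (0.92) and Fh1 (0.74). In the apolipoprotein L family Apol9a (-0.95) and Apol9b (-1.35) were lower. In the slope test no gene of these lists was called, and in the same step after medium 0 genes of these lists were called. The difference between the TGFβ and medium steps was called for 0.067% of genes and not for Acod1.

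Genes within 150 kb of the members on the same chromosome were followed to see whether the response was shared along the chromosome. Next to Acod1, Kctd12, 64.3 kb away, rose from 4.90 ± 1.03 to 9.83 ± 5.60 CPM (log2 change 0.97, adjusted p = 0.0158), and Mycbp2 rose by 0.31. Next to Apol6, the splicing factor gene Rbfox2, 21.9 kb away, had a log2 difference of 0.068 (adjusted p = 0.514). The gene 1110038F14Rik, 93.8 kb away, rose from 34.3 ± 1.99 to 78.2 ± 17.1 CPM (1.18, SE 0.0905), Rpl8 rose by 0.14 and Zfp647 fell by 0.34. None of the neighbours named here approached the change of the member beside it.

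The genes whose profile over the 29 libraries was most like each member were ranked by the root mean square difference of log2 CPM, each gene centred on its own mean. The samples share a strong difference between libraries with and without IFNγ, which any induced gene follows. For Apol6 these were Serpina3f (0.656), Batf2 (0.713), Cxcl9 (1.02), Gm4841 (1.13) and Gbp4 (1.27), where the median over all genes was 3.32 and Acod1 ranked 9th (1.37). All 5 kept their place among the closest 5 with a prior count of 0.5. Serpina3f, a serine protease inhibitor gene, had 0 counts in medium alone and in TGFβ then medium and measured 9.05, 7.45, 11.2 and 10.7 CPM in TGFβ then IFNγ.

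For Acod1 the closest genes were BC023105 (0.638), Trim30c (0.712), Cd274 (0.770), Gbp10 (0.826) and Mpeg1 (0.854), with a median of 2.84 over all genes and Apol6 at rank 46. With a prior count of 0.5, 3 of the 5 stayed. Trim30c, of the tripartite motif family, measured 39.7, 36.9, 2.99 and 1.15 CPM in TGFβ then IFNγ at 2, 6, 12 and 24 h and 44.3 CPM in the mix. Mpeg1, the gene of the pore-forming protein perforin-2, measured 127, 102, 45.9 and 21.7 CPM in the same libraries. As for Acod1, the libraries of 12 and 24 h were the lowest in both genes. The slope was -1.47 for Trim30c (edgeR adjusted p = 0.0774) and -0.72 for Mpeg1 (adjusted p = 0.180). BC023105, Cd274 and Gbp10 had flatter slopes of -0.43, -0.38 and -0.25 (adjusted p = 0.207, 0.296 and 0.297). Gbp10 and Mpeg1 were the genes that left the closest 5 with a prior count of 0.5.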

How the data were processed

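Per the labels' protocols, RNA of NMM cells with an integrity number over 8 went into stranded mRNA libraries sequenced on a NovaSeq. The authors deposited whole-number counts per Ensembl gene, not normalised. The submitters' processing notes name HISAT, with no version, and the build GRCm38. What tool, annotation and strand setting were used for counting is not given in the sources used here. All columns were matched to samples by name, and 0 were left over.

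The analysis used edgeR 4.0.16 (R 4.3.3): filterByExpr on sequences (minimum count 10), TMM, and a quasi-likelihood test (glmQLFit, glmQLFTest) over all 29 libraries with terms for sequence and duration (18 residual degrees of freedom). Trends used an intercept and a slope on log2 hours per sequence (14 residual degrees of freedom). SE was derived by dividing the log2 fold change by the square root of F. Log2 CPM used a prior count of 2. Deviations of same-duration libraries from the sequence means correlated by 0.192 to 0.398 for the IFNγ response after TGFβ, 0.138 to 0.333 for the pulse before TGFβ, 0.218 to 0.401 for TGFβ after the pulse, 0.0672 to 0.359 for the order of the cytokines and 0.00158 to 0.233 for the choosing comparison, so that in the last 2 the data do not show that duration pairs the libraries. No pair of libraries in a sequence agreed within sampling noise (chi-square over its degrees of freedom at least 3.66). In data simulated for the IFNγ response after TGFβ with 14523 genes, 80% of 2-fold and 94.9% of 4-fold changes were recovered.

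Of the gene identifiers, 28182 of 28229 were in GENCODE M21. Promoter motifs were searched in RefSeq windows, in which Acod1 was matched and Apol6 was not. Both genes, the lists, the durations compared and the alternatives were chosen with earlier results of these data known. The genes named were the members, genes within 150 kb with at least 1 count, the 5 closest profiles, and in each list the 2 to 4 called genes with the largest change in the IFNγ response after TGFβ. Nfe2l2, Apold1, Ifngr1, Ifngr2, Hif1a, the marker genes, the genes tested only through IFNγ libraries, the genes called in the step between durations and the profiles shown by library were named after their values were seen, and some genes that the rule names are not reported here. Alternatives were other size factors, no filter, DESeq2 1.42.0, no duration factor, only the compared sequences, other prior counts, a step in place of the slope, and single libraries left out. Intervals and limits of 3 counts cover counting error only.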

Additional observations from a re-analysis of the deposited data

Results flagged for a closer look

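Acod1 in the 6 h library of IFNγ then medium, at 10.4 CPM, stood apart from the other 3 libraries of that sequence, which measured 3.70 to 3.88 CPM. The gap to its nearest neighbour took 0.972 of the group's range, above Dixon's 95% critical value for 4 samples. The 6 h library of IFNγ then TGFβ, also at 10.4 CPM (10.36 before rounding), stood apart in the same way, with a gap of 0.902 of the range. Chance flags about 1 in 20 groups. After the first Acod1 value had been seen, all genes were searched for the same pattern: in 146 genes the 6 h library was the highest and apart in IFNγ then medium, in 162 in IFNγ then TGFβ, and in 13 of 14935 (0.0870%) in both. Acod1 was 2.75 and 4.56 times the mean of the other durations there, and Trim30c 5.23 and 4.47 times.

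The mix library was outside every comparison and held Apol6 at 25.4 CPM and Acod1 at 154 CPM (153.5 before rounding), against at most 0.183 and 3.71 CPM in medium alone. Both values lie above every medium library, in a library without replicates.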

How the results depend on the processing

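The calls of Apol6 and Acod1 in the IFNγ response after TGFβ and in the order of the cytokines held under every alternative run. The first ranged from 7.27 to 10.2 for Apol6 and from 5.36 to 6.72 for Acod1. Low counts limit Apol6 wherever IFNγ was not last. The block for duration changed no call of the members: without it their changes in the IFNγ response after TGFβ were 8.34 and 5.92. Of 1179 values of list genes and list counts, 1129 stayed, 46 lost their call, 4 moved and 0 reversed. The cause of the differences below was not tested.

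Counts of called genes moved. For the IFNγ pulse before TGFβ they were 14, and 93 with no filter, 160 with DESeq2, 1 with no replicate block, 73 with only the compared sequences, 121 without the 6 h medium library (an alternative chosen after seeing the data) and 0 to 45 with single libraries left out. For TGFβ after the pulse they were 1084, and 488 with no replicate block, 3177 with only the compared sequences and 686 to 1061 with libraries left out. For the TGFβ slope they were 31, and 266 with no filter, 295 with DESeq2, 171 without the 6 h medium library, 1493 as a step (12 and 24 h against 2 and 6 h) and 0 to 47 with libraries left out. For the medium slope 0 became 9 as a step. For the slope difference 0 became 1 with no filter, 1 with DESeq2, 10 as a step and 0 to 3 with libraries left out. For the pulse slope in medium 0 became 5 with no filter, 5 with DESeq2, 26 as a step and 0 to 1 with libraries left out. For the pulse slope in TGFβ 1 became 2 with no filter, 38 as a step and 0 to 1 with libraries left out.

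The Acod1 slope after TGFβ became called with no filter (-1.05, adjusted p = 0.0113) and as a step (-3.04, adjusted p = 9.73e-05), and ran from -1.81 to -0.73 with libraries left out. Slopes near 0 changed sign with libraries left out: Apol6 after TGFβ (-0.12 to 0.036), after medium (-0.27 to 0.069) and in their difference (-0.084 to 0.25), and Acod1 after the pulse in medium (-0.78 to 0.093) and in TGFβ (-1.04 to 0.22). In the choosing comparison Apol6 was 7.44 with a prior count of 2.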
